A study of Mus musculus with 43 samples.

Results

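Glucose, lactate and related organic anions cross the plasma membrane of a T cell through carriers of 3 gene families, and 23 carrier genes of these families were among the 2078 metabolic genes knocked out in this screen. They were taken as every gene of the library whose symbol starts with Slc2a, Slc5a or Slc16a, followed by a number. The choice gave 7 genes of the Slc2 family, 11 of the Slc5 family and 5 of the Slc16 family. Each gene was targeted by 5 single guide RNAs (sgRNAs), so 115 of the 10640 sgRNAs of the library belong to them, beside 250 nontargeting sgRNAs that cut no gene. All 23 genes and all 115 sgRNAs were tested, with no filter on low values.

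The cells were CD8+ T cells of OT-I mice, whose T cell receptor recognises an ovalbumin peptide, with Cas9 knocked in at Rosa26. They were transduced with a lentiviral sgRNA library that also carries CD90.1, sorted on that marker, and transferred by tail vein into Rosa26-Cas9 mice that bore a KPC_OVA tumour, a pancreatic ductal adenocarcinoma line made to express ovalbumin and placed in the head of the pancreas. Every recipient received anti-PD-1, which blocks the inhibitory receptor PD-1 on T cells, or rat IgG as the control antibody, from the day of transfer, and 7 days later the CD90.1+ OT-I cells were sorted from 7 organs. The T0 group holds 3 libraries from aliquots of the cells on the day of transfer, which were cultured and saw neither a mouse nor an antibody. The groups outside the lymph nodes were primary tumour, lung and spleen with 3 libraries under each antibody, peritoneal metastases with 2 under IgG and 3 under anti-PD-1, and liver with 2 under IgG and 1 under anti-PD-1. Draining and nondraining lymph nodes each had 3 libraries under each antibody. For the second anti-PD-1 library of peritoneal metastases the tissue field names spleen, and the title was followed. The T cells recognised a model antigen, the transduction used a high multiplicity of infection, and how many sgRNAs a cell carried is not given. The labels number the libraries of a group as biological replicates but tie no library to a mouse.

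Members of the Slc2 family (GLUT proteins) let hexoses flow down their gradient, and Slc2a1 and Slc2a3 encode the forms that activated T cells are known to rely on for glucose. The Slc16 family holds the proton-coupled monocarboxylate transporters, of which MCT1 (Slc16a1) and MCT4 (Slc16a3) carry lactate and pyruvate in and out of glycolytic cells. The Slc5 family couples its substrate to sodium, and its substrates range from glucose in gut and kidney to iodide, myo-inositol, choline, lactate and, for Slc5a6, the vitamins biotin and pantothenate together with lipoate. In a pooled screen an sgRNA becomes rarer than nontargeting sgRNAs where the cells that carry it are lost or fail to expand, and more frequent where they expand or accumulate more.

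The deposited table names its sgRNAs by number, so the sequences behind the values are not printed here. Of the genes described below, Slc5a12 was also targeted in the study's later single-cell screen. The paper chose the genes of that screen as enriched in this one by both MAGeCK and STARS, in at least 1 organ and treatment. Those tests and thresholds differ from the ones used below. The later screen used newly designed sgRNAs, which are shown to place the cuts in the gene, and none of the values below was measured with them. They are written 5′ to 3′ with the genomic bases that follow the target in capitals, which are the NGG motif Cas9 requires, and their places were found by an exact match to GRCm38.
Slc5a12_gRNA1: aggtactcagtttgtcggagAGG
Slc5a12_gRNA2: cattatctacatcgtacagaCGG
Slc5a12_gRNA3: atccaaggatcaaatcatgtTGG
Each sequence had 1 match on chromosome 2, inside the gene at chr2:110597299-110649345 on the plus strand. Slc5a12_gRNA1 lies on the minus strand at chr2:110624211-110624230 in exon 9 of the 15 exons of the RefSeq transcript, Slc5a12_gRNA2 on the plus strand at chr2:110605768-110605787 in exon 2, and Slc5a12_gRNA3 on the plus strand at chr2:110616749-110616768 in exon 5. All 3 target sites lie inside coding sequence.

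Values are on the log2(signal + 1) scale. The level of a gene in a library is the mean over its 5 sgRNAs minus the mean of the 250 nontargeting sgRNAs of the same library, so that 0 is the level of nontargeting sgRNAs, and a change is the mean level of a group minus that of T0. The chance of seeing an sgRNA at all differed strongly between organs. In the T0 libraries none of the 115 carrier sgRNAs was undetected, counted as holding the lowest value that several libraries of a replicate number share. The undetected share of these sgRNAs ranged from 0% to 22.6% in tumour, liver, peritoneal metastases and spleen, from 2.61% to 41.7% in lung and, in lymph nodes, from 40.9% to 90.4%. Values in lung and lymph nodes therefore rest on fewer detected sgRNAs, and their spread was wider. The SD of the nontargeting sgRNAs within a library, on the same log2 scale, was 1.08 to 1.11 at T0, reached 2.62 to 3.68 in lung and lay at 2.04 to 4.35 in lymph nodes.

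Averaged over the 10 groups outside the lymph nodes, 3 carriers stood lowest, namely Slc5a6, Slc2a1 and Slc16a1. Slc5a6 changed by -1.51 (SE 0.554), Slc2a1 by -1.33 (SE 0.475) and Slc16a1 by -1.23 (SE 0.542). None of the 23 carriers passed an adjusted p of 0.05 in this average, where limma called 16.3% of all 2078 genes, 334 of them lower and 4 higher than T0. The limma adjusted p was 0.0512 for Slc2a1, 0.0624 for Slc5a6 and 0.168 for Slc16a1, and these were the 3 carriers with an unadjusted p below 0.05. With the replicate number as a block, Slc2a1 (-1.38, adjusted p = 0.0387) and Slc5a6 (-1.61, 0.0212) passed beside 16.4% of all genes. What libraries of the same replicate number share is not given by the labels. Their correlations had a median of -0.029, against 0.006 for pairs with different numbers. Within replicate numbers 1, 2 and 3 taken alone, the libraries outside the nodes against T0 averaged -1.66, -1.35 and -1.39 for Slc2a1, -2.52, -0.89 and -1.20 for Slc5a6 and -1.56, -0.98 and -1.41 for Slc16a1. The median change was -0.10 over the carriers and -0.14 over all genes, and 16 of the 23 carriers were below 0. At the other end stood Slc5a12 at 0.58 (SE 0.448, adjusted p = 0.814) and Slc5a9 at 0.50 (SE 0.467, adjusted p = 0.933). These genes were at 0.17 and 0.09 with the nontargeting median as reference, where the median gene was at -0.55, and at -0.42 and -0.50 with no centring, where it was at -1.14.

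These standard errors take T0 to vary as much as the organs do, whereas the 3 T0 libraries lay much closer together. The median SD over the 23 carriers was 0.165 at T0 and 0.884 within the groups outside the lymph nodes. In a limma fit that gave T0 its own spread, chosen after these SDs were seen, 5 carriers passed beside 29.8% of all genes. Slc2a1 (adjusted p = 2.25e-06), Slc5a6 (3.54e-06), Slc16a1 (4.68e-05) and Slc5a2 (0.0423) were lower and Slc5a12 was higher (0.0243). The same fit on single sgRNAs also called 29 of the 250 nontargeting sgRNAs, against 0 with 1 spread for all libraries. The calls of Slc2a1, Slc5a6 and Slc16a1 therefore depend on how the spread of T0 is treated, while the sizes of their changes were the same in both fits. Because the T0 libraries lie so close together, libraries fall outside their range easily. Slc2a4, at a change of -0.09, had 14 of 26 libraries below and 10 above every T0 library. Counts of this kind are given below without the share over all genes.

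Of the glucose facilitators, Slc2a1 (GLUT1), which carries basal glucose uptake, was the carrier that lay below T0 in the most libraries. Its level was 0.25, 0.23 and 0.64 in the T0 libraries. Outside the lymph nodes it ran from -3.04 to 0.45 with a median of -0.84, and 25 of the 26 libraries lay below every T0 library. The exception was the only anti-PD-1 library of liver, at 0.45. That library alone is 1 of the 10 groups averaged, and without it the change of Slc2a1 was -1.49 with a limma adjusted p of 0.0221. As it held the highest level of Slc2a1, leaving it out could only make the decrease larger. With each of the 29 libraries left out in turn, the change ran from -1.49 to -1.20 and the limma adjusted p from 0.0178 to 0.291. The decrease passed in 11 of these 29 fits.

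In lung under IgG the levels of Slc2a1 were -3.04, -2.37 and -0.46, a change of -2.33 (SE 0.631, limma adjusted p = 0.00594) in a group where 17.9% of all genes were called. In these libraries 4, 3 and 1 of its 5 sgRNAs were undetected. In peritoneal metastases under IgG they were -1.31 and -2.25, a change of -2.16 (SE 0.706, adjusted p = 0.0334), with 13.7% of genes called. Both groups lay wholly below T0. The lung call was lost without the lung IgG library at -3.04 (adjusted p = 0.0637), and that of peritoneal metastases without either of its libraries or any T0 library (adjusted p up to 0.378).

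In the other groups the change of Slc2a1 did not pass the test. In the primary tumour the levels were -1.40, -1.01 and 0.00 under IgG and -1.15, -1.83 and -0.37 under anti-PD-1, so all 6 libraries were below T0. In spleen they were -2.07, -0.70 and -0.13 under IgG and -0.40, -0.79 and -0.79 under anti-PD-1, again all below T0. Lung under anti-PD-1 had levels of -0.84, -0.84 and -2.18, all below T0, and a change of -1.66 (adjusted p = 0.0647). Liver stood nearest to T0, with -0.83 and 0.01 under IgG and the single library at 0.45 under anti-PD-1. The changes were -1.18 and -1.49 in primary tumour under IgG and anti-PD-1, -1.34 and -1.03 in spleen, and -0.78 and 0.08 in liver. Background calls were 14.3% of genes in primary tumour under IgG, 14.6% under anti-PD-1, 13.9% in spleen under IgG, 14.4% under anti-PD-1, 13.3% in liver under IgG and 9.87% in liver under anti-PD-1.

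All 5 sgRNAs against Slc2a1 were below 0 in the average, from -2.92 to -0.55. The strongest, s_03325, had a signal of 213, 168 and 180 at T0 and a median of 15.0 over the 26 libraries outside the nodes, where it was undetected in 8. The weakest, s_03322, had a signal of 139, 116 and 104 at T0 and a median of 49.6 outside the nodes, with a change of -0.55. Signals are not centred, whereas changes are relative to the nontargeting sgRNAs, which fell as well. The nontargeting mean on the log2 scale was 7.60 to 8.23 at T0 and 5.60 to 7.89 outside the nodes. For comparison, 95% of nontargeting sgRNAs changed by between -1.51 and 1.11, and s_03325 was the only Slc2a1 sgRNA outside that range.

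Slc2a3 (GLUT3), a high-affinity glucose carrier that T cells also express, stayed near its T0 level on average. Its level was 0.19, -0.22 and 0.05 at T0 and had a median of 0.15 outside the nodes, from -3.27 in 1 spleen IgG library to 2.34 in 1 spleen anti-PD-1 library. The change was 0.10 (95% interval -1.02 to 1.22, adjusted p = 1), and its 5 sgRNAs stayed between -0.16 and 0.33, the tightest set but 1 among the carriers. The difference between Slc2a1 and Slc2a3 was 0.36 at T0 and -1.14 outside the nodes, and it was below every T0 value in 23 of 26 libraries. This shift of -1.50 had p = 0.0567 in a two-sided exact permutation test of the 3 T0 libraries against the 26 others, and 0.0728 after adjustment over 2 such pairs, so a difference between the paralogues was not shown by the test.

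Slc2a2 (GLUT2), the low-affinity carrier of liver and pancreatic islets, and Slc2a4 (GLUT4), the insulin-responsive carrier of muscle and fat, changed by -0.20 and -0.09. The remaining Slc2 members were as close to 0, with Slc2a8 (GLUT8) at -0.10, Slc2a10 (GLUT10) at -0.03 and Slc2a13, a proton-coupled myo-inositol carrier, at -0.18. All 5 genes had an adjusted p of 1 and 95% intervals between -1.25 and 1.0. Their organ mean farthest from T0 outside the nodes was that of Slc2a10 in peritoneal metastases, at -0.93.

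Among the proton-coupled monocarboxylate carriers Slc16a1 stood lower than Slc16a3 on average, but this difference was not shown by the test either. The level of Slc16a1 was 0.20, 0.01 and 0.31 at T0 and ran from -3.69 to 0.45 outside the nodes, with a median of -0.95 and 23 of 26 libraries below every T0 library. In spleen under anti-PD-1 its levels were -1.48, -3.28 and -0.70, a change of -1.99 (SE 0.721, limma adjusted p = 0.062). In the primary tumour they were -2.0, -0.68 and -0.82 under IgG and -1.21, -1.48 and -0.99 under anti-PD-1, changes of -1.34 and -1.40 with adjusted p of 0.417 and 0.349. Every library of these 3 groups was below T0, yet the decrease passed the test in none of them.

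Lung was mixed for Slc16a1. Its levels were -0.64, 0.22 and -3.69 under IgG and -0.91, 0.45 and -0.36 under anti-PD-1, so the library at -3.69 made most of the decrease under IgG. The sgRNAs of this gene also differed among themselves. s_03221 and s_03222 changed by -2.29 and -2.21, both below the nontargeting range, s_03223 by -1.40, s_03224 by -0.44 and s_03225 by 0.19.

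Slc16a3 had levels of 0.10, 0.31 and 0.04 at T0 and a median of 0.28 outside the nodes, with 8 libraries below and 12 above every T0 library. Its change was 0.17 (95% interval -0.82 to 1.15, adjusted p = 1). The highest library was the single liver anti-PD-1 library at 2.15, and without it the change was -0.03. The difference between Slc16a1 and Slc16a3 went from 0.02 at T0 to -1.33, a shift of -1.35 (p = 0.0728 in the two-sided exact permutation test, 0.0728 after adjustment). Slc16a7 (MCT2) and Slc16a8 (MCT3), which also carry lactate, changed by -0.21 and -0.11, each with an adjusted p of 1.

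The sodium-coupled monocarboxylate carriers, which take up lactate and short-chain fatty acids with sodium, moved in different directions by sizes that did not pass. Slc5a12 (SMCT2), the low-affinity form, had levels of 0.30, 0.06 and -0.12 at T0 and a median of 0.55 outside the nodes, with 19 of 26 libraries above and 3 below every T0 library. It was above T0 in all 3 libraries of lung under IgG, at 1.0, 2.23 and 0.53, and in all 3 of liver, at 1.23 and 1.32 under IgG and 1.14 under anti-PD-1. Its change was 1.17 in lung under IgG (limma adjusted p = 0.209) and 1.20 in liver under IgG (0.413). As given above, the direction of the 0.58 average turned when the values were not centred.

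All 5 Slc5a12 sgRNAs were above 0 in the average, from 0.19 to 0.96, the only carrier for which this held. The highest, s_09284, had a signal of 444, 420 and 115 at T0 and a median of 229 outside the nodes, but reached 28600 in the third lung anti-PD-1 library, 9478 in the third anti-PD-1 library of peritoneal metastases and 6076 in the third spleen IgG library. Its value was thus set by few libraries, while s_09285, with a change of 0.74 (SE 0.616), ranged from 61.0 to 579. The signal of s_09285 was 366, 335 and 242 at T0 and had a median of 259 outside the nodes. That median lies within the T0 range, and the change is relative to the nontargeting mean. Slc5a8 (SMCT1), the high-affinity form, changed by -0.39 (adjusted p = 0.969), and 17 of 26 libraries lay below and 7 above every T0 library.

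Slc5a6 encodes the sodium-dependent multivitamin transporter and had the lowest average of all carriers. Its level was 0.71, 0.19 and 0.48 at T0, and 22 of the 26 libraries outside the nodes lay below every T0 library, with a median of -1.05. In lung under anti-PD-1 it stood at -2.41, -2.02 and -2.27, a change of -2.69 (SE 0.737, limma adjusted p = 0.00617) in a group with 18.1% of genes called. Of all carriers and groups this was the lowest change, with 3 libraries close to each other, and it remained past the threshold without any 1 library.

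In lung under IgG the levels of Slc5a6 were -4.18, -1.80 and 0.38, a change of -2.32 (SE 0.737, adjusted p = 0.0224). The libraries ran from far below T0 to within its range. In the library at -4.18 all 5 sgRNAs were undetected, so its level is the lowest that library could give for this gene, and the call was lost without the library at -4.18 (change -1.16, adjusted p = 0.313) or without T0 replicate 1 or 3. The lung mean over both antibodies was -2.51, against -1.59 in liver, -1.30 in primary tumour, -1.25 in peritoneal metastases and -0.88 in spleen. The spleen IgG libraries lay on both sides of T0, at -1.08, 1.13 and 0.89. The test over the 5 organs gave Slc5a6 an unadjusted p of 0.0444 and an adjusted p of 0.636, so a difference between organs was not shown.

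All 5 sgRNAs against Slc5a6 were below 0, from -2.41 to -1.02. The signal of s_09744 was 478, 207 and 288 at T0 and had a median of 51.4 outside the nodes, and that of s_09741 went from 409, 355 and 253 to 98.0. These signals are not centred. By their centred changes both sgRNAs were below the nontargeting range. Over all carriers, 5 of 115 sgRNAs (4.35%) fell below this range and 1 (0.87%) above it, against 17.4% and 2.49% of all targeting sgRNAs. As single sgRNAs, none of the 115 passed, where limma called 7.59% of the library, and 1, s_03325 of Slc2a1, had an unadjusted p below 0.05. With T0 given its own spread, 11 were called lower and 3 higher beside 23.8% of the library, the nontargeting sgRNAs included. Of these 14, Slc5a6 held 4, Slc2a1 3 and Slc16a1 2.

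Slc5a5 encodes the iodide carrier of thyroid cells. It was lower than T0 in all 3 lung IgG libraries, at -3.13, -2.01 and -2.13, against 0.14, 0.15 and 0.02 at T0, a change of -2.53 (SE 0.636, limma adjusted p = 0.00297). All of its 5 sgRNAs were lower there, from -3.58 to -1.76, with 4, 2 and 2 of them undetected in the 3 libraries. The decrease still passed without any 1 library and in 7 of 8 alternatives, the median over sgRNAs being the exception (adjusted p = 0.174). Under anti-PD-1 the lung libraries stood at -1.53, 0.60 and 1.29, on both sides of T0, and no other group reached the threshold. Averaged over the 10 groups, Slc5a5 changed by -0.42 (SE 0.478, adjusted p = 1). Slc5a7, the choline carrier of neurons, changed by -0.06.

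The sodium-coupled sugar carriers, which concentrate glucose in gut and kidney epithelium, stayed near T0 except for Slc5a2 and Slc5a9. Slc5a2 (SGLT2), the glucose carrier of the kidney tubule, changed by -0.64 (95% interval -1.74 to 0.46, adjusted p = 0.883). Of its 26 libraries, 16 lay under and 2 above every T0 library, and all 5 sgRNAs were between -1.46 and -0.04. It was lowest in liver under IgG, at -2.30 and -1.50, a change of -1.79 with an adjusted p of 0.208. Slc5a9 (SGLT4), which carries mannose, changed by 0.50, with 17 libraries above and 6 below every T0 library. Slc5a1 (SGLT1) changed by 0.05 and Slc5a10 (SGLT5) by -0.03. The myo-inositol carriers Slc5a3 (SMIT1) and Slc5a11 (SMIT2) changed by 0.13 and -0.15, and the sgRNAs of Slc5a3 were the most divergent of any carrier, from -1.25 to 1.52.

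Whether checkpoint blockade altered the dependence on a carrier was asked by the contrast of both antibodies over the 5 organs outside the nodes. None of the 23 carriers passed, where 1.35% of all genes did, and their differences ran from -0.59 to 0.91. Within single organs Slc5a5 in lung was the only carrier called, at 2.54 higher under anti-PD-1 (SE 0.636, limma adjusted p = 0.0234), with 3.56% of genes called in that comparison. The call was lost without the lung IgG library at -3.13 or the anti-PD-1 library at 0.60 or 1.29 (adjusted p up to 0.0824). It was also lost in 3 of 8 alternatives, with an adjusted p of 0.0516 with log2(signal + 10), 0.213 with the median over sgRNAs and 0.286 with all libraries in 1 fit. In primary tumour, liver, peritoneal metastases and spleen the comparison called 0% of all genes, and the carriers with an unadjusted p below 0.05 there numbered 0, 3, 1 and 1. Slc2a1, which passed in peritoneal metastases under IgG, lay below T0 under anti-PD-1 as well, at -1.0, -0.33 and -1.76, a change of -1.40 (adjusted p = 0.19) in a group with 15.4% of genes called. The 2 changes differed by 0.75 (95% interval -0.68 to 2.19, adjusted p = 0.961).

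The 5 organs outside the nodes were also compared with each other. By the paper's account the values had already been corrected for batches between organs. How far this changed differences between organs, or from T0, could not be checked from the deposited values. The floor of these values differed by replicate number. In primary tumour under IgG, 3.17% of sgRNAs were undetected in replicate 1 and 0% were exact zeros, against 2.78% and 2.78% in replicate 3. Whether the replicate number was a batch in the correction was not tested. In the test over organs no carrier passed, where 0.433% of all genes did. Slc2a10 and Slc5a6 had an unadjusted p below 0.05. The range between the highest and the lowest organ mean was 1.67 for Slc5a5, 1.64 for Slc2a1 and 1.63 for Slc5a6, the widest among the carriers, and 0.23 for Slc5a7, the narrowest. For Slc2a1 the order from lowest to highest was lung at -2.0, peritoneal metastases at -1.78, primary tumour at -1.33, spleen at -1.19 and liver at -0.35. The spread within groups, 0.80 as a pooled SD for Slc2a1, is as wide as most steps in this order.

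In the lymph nodes, fitted apart from the other organs, limma called no gene of the library. The 4 comparisons of draining and nondraining nodes with T0, under IgG or anti-PD-1, each called 0% of the 2078 genes, while 126 to 234 genes had an unadjusted p below 0.05. With all libraries in 1 fit, 74 and 44 genes were called in draining nodes and 1 and 5 in nondraining nodes under IgG and anti-PD-1, and with T0 given its own spread 2 and 12, and 1 and 6; no carrier was among them. Carriers with an unadjusted p below 0.05 were Slc16a1 in draining nodes under anti-PD-1, at -1.36, -2.08 and -3.82 and a change of -2.59 (SE 1.09, limma adjusted p = 0.336), and Slc2a1 in nondraining nodes under anti-PD-1, at -0.62, -1.29 and -3.83 and a change of -2.29 (SE 1.10, adjusted p = 0.761). In all 3 libraries of either comparison all 5 sgRNAs of the gene were undetected, so these levels mark only the floor below the nontargeting mean of each library and no size is read from them. The means of draining and nondraining nodes against T0 were -1.95 and -1.77 for Slc2a1 and 0.82 and -0.16 for Slc5a6. They include such floor levels, so no difference between the genes is read from them. A single Slc5a6 library of draining nodes under IgG was at 4.06. Slc2a1 had all 5 sgRNAs undetected in 7 of the 12 node libraries, Slc16a1 in 4 and Slc5a6 in 3.

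The genes that act after these carriers gave a measure of what a strong loss looks like in the same cells. Of the 26 genes for glycolysis and lactate dehydrogenase, 9 fell in the average outside the nodes and none rose, led by Aldoa (aldolase A) at -5.81, Pgam1 (phosphoglycerate mutase) at -4.55, Tpi1 (triosephosphate isomerase) at -4.52 and Pkm (pyruvate kinase) at -4.10. Hk2, the hexokinase that traps glucose in the cell, was at -1.09 (adjusted p = 0.204), a change near that of Slc2a1. Ldha, which makes lactate from pyruvate, fell by 2.67 (limma adjusted p = 9.32e-05). The median of the list was -0.19 and that of all genes -0.14, and the 9 of 26 genes called stand against 16.3% of all genes.

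Slc5a6 carries biotin, pantothenate and lipoate, and whether any enzyme listed here depends on that supply was not tested. Of 18 genes for the use of biotin and pantothenate and for making or attaching lipoate, 7 fell and none rose, beside 16.3% of all genes called. They were Ppcs, Ppcdc and Coasy, which turn pantothenate into coenzyme A, Lipt1, Lias and Lipt2, which make or attach lipoate, and Acaca, the biotin enzyme acetyl-CoA carboxylase. The changes were -4.89 for Ppcs, -4.09 for Lipt1, -3.94 for Lias and -3.80 for Ppcdc, so that Slc5a6 at -1.51 was nearer to Acaca at -1.61 than to these. The enzymes that attach or recycle biotin, Hlcs and Btd, were at -0.09 and -0.49, with adjusted p of 1 and 0.953. Of the 11 genes for the entry of pyruvate into mitochondria, only Dld, the lipoamide dehydrogenase of several complexes, passed, at -4.42. Mpc1, a subunit of the mitochondrial pyruvate carrier, was at 0.27 (adjusted p = 1). None of the 5 inositol synthesis genes and none of the 8 choline genes passed, with medians of -0.17 and -0.38.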

How the data were processed

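Per the labels, integrated sgRNAs were sequenced from genomic DNA of the sorted cells. The authors counted them with MAGeCK-VISPR, scaled the counts by the nontargeting sgRNAs and applied ComBat for batches between organs. The deposited values are this signal, which is no longer in whole reads, so no count test was run and depth is unknown. Of 43 samples, 41 have values, since 2 were excluded in quality control.

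From the signal, a gene's level was computed as the mean log2(value + 1) of its 5 sgRNAs, less the nontargeting mean of the library. limma 3.58.1 (R 4.3.3) fitted 1 mean per group, separately for the 29 libraries outside lymph nodes with T0 (prior variance 0.59, 15.5 prior degrees of freedom) and for the 15 of lymph nodes with T0 (1.64 and 18.2), with Benjamini-Hochberg adjustment over 2078 genes, or 10640 sgRNAs, at 0.05. Adjusted p-values in the text are from limma. The paralogue tests used Python 3.11.15. The fits were tested on simulated data. No libraries held identical values. An sgRNA was taken as undetected where at least 2 libraries of its replicate number shared its lowest value to within a relative 1e-09.

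The carriers, the other gene lists and the tests were chosen with earlier results of these data known. Genes are named where they are Slc2a1, Slc2a3, Slc16a1, Slc16a3, Slc5a6 or Slc5a12, passed in any comparison with T0, or are among the 3 highest or 3 lowest averages; others are given by value only, 1 carrier is not reported here, and named pathway genes outside the 4 with the largest change per list were chosen after their values were seen. Basigin-type chaperones of the monocarboxylate carriers were also listed, but 0 are among the library genes analysed here. Alternatives were a pseudocount of 10, a median in place of the mean over sgRNAs, centring on the nontargeting median or not at all, leaving out the lowest 10% of sgRNAs, all libraries in 1 fit, the replicate number as a block, and each library left out. The comparisons within organs, the paralogue tests and T0 with its own spread were added after the values were seen. Per-library p-values measure the spread between libraries, since the labels tie no library to a mouse.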

Additional observations from a re-analysis of the deposited data

Results flagged for a closer look

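The change of Slc5a5 in lung differed between the antibodies, by 2.54 on the log2 scale (anti-PD-1 minus IgG; limma adjusted p = 0.0234 over 2078 genes). It was picked out by the contrast of anti-PD-1 with IgG within lung, 1 of 5 such contrasts, added after the values were seen. That contrast called 3.56% of all genes. The 3 IgG libraries stood at -3.13, -2.01 and -2.13 and the anti-PD-1 libraries at -1.53, 0.60 and 1.29. The difference passed in 5 of 8 alternatives and not with log2(signal + 10) (adjusted p = 0.0516), the median over sgRNAs (0.213) or all libraries in 1 fit (0.286). The undetected share of the 115 carrier sgRNAs reached 41.7% in lung, and its part in this difference was not tested.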

How the results depend on the processing

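The changes of Slc2a1, Slc5a6 and Slc16a1 kept their direction under all 8 alternatives and without any 1 library, from -2.33 to -0.93, from -2.50 to -1.22 and from -2.23 to -1.06 over the alternatives. Their calls in the average of 10 groups did not. The number of carriers called there was 0 as reported, beside 16.3% of all genes. It was also 0 with the median over sgRNAs (11.4%), without the lowest 10% of sgRNAs (3.75%) and with all libraries in 1 fit (15.3%). It was 3 with log2(value + 10) (17.2%), 3 with the nontargeting median (17.9%) and 6 with no centring (32.4%). The replicate block called 2 (16.4%), T0 given its own spread 5 (29.8%), and fits without 1 library 0 to 2. Over the alternatives the limma adjusted p reached 0.596 for Slc2a1, 0.477 for Slc5a6 and 0.902 for Slc16a1. The library without which most carriers were called was that of lung IgG replicate 1 or 3 or of peritoneal metastases anti-PD-1 replicate 2, each with 2. Slc2a1 passed in 11 and Slc5a6 in 3 of the 29 fits that left a library out. Single carrier sgRNAs called were 0 as reported, 1 with no centring and 14 with T0 given its own spread.

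In single groups log2(value + 10) called 2 carriers in primary tumour, 2 in lung and 1 in spleen, each under anti-PD-1. All genes called in these groups were 16.3%, 18.1% and 15.9%. T0 with its own spread called 1, 2 and 2 there, beside 16.5%, 26.6% and 18.9% of all genes. In peritoneal metastases under anti-PD-1 it called 1, beside 18%. The nontargeting median called 7 in lung under IgG beside 38.4% of all genes and 3 in lung under anti-PD-1 beside 27.4%. With it, 0 were called in liver under IgG (13.2%) and 1 in spleen under anti-PD-1 (15.9%). The median over sgRNAs called 5 in lung under IgG, of which Slc2a1 was lower and 4 were higher. Beside them 20.4% of all genes were called, with 38.2% of these calls higher and the median gene at 0.58. That setting called 0 in lung under anti-PD-1 (13.4%), in liver under IgG (7.17%) and in peritoneal metastases under IgG (6.69%). Leaving out the lowest 10% of sgRNAs called 1 in lung under IgG (3.51%). It called 0 in liver under IgG (0.866%) and in peritoneal metastases under IgG (0.433%). Fitting all libraries at once called 1 (13.7%), 0 (11.7%) and 0 (11.8%) in these groups. With no centring the count was 16 and 14 in lung (73.8% and 47.5% of all genes), 3 and 1 in liver (22.9% and 16.5%), 2 and 1 in peritoneal metastases (17% and 19.1%) and 2 and 3 in spleen (17.5% and 24.4%) under IgG and anti-PD-1, 3 for differences between organs (14.4%) and 23 in each of the 4 node groups (97% to 99.1%), where the median gene stood between -5.97 and -5.23. Without 1 library the counts ran from 1 to 4 in lung under IgG, from 1 to 2 in lung under anti-PD-1, and from 0 to 1 in liver under IgG, in peritoneal metastases under IgG and in spleen under anti-PD-1. The cause of these changes was not tested.

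Slc2a3 and Slc16a3 were at -0.31 and -0.24 with the nontargeting median and at -0.90 and -0.83 with no centring. Over all genes the average outside the nodes called 338, with 1.18% of calls higher, 620 with T0 given its own spread (15.0% higher), 673 with no centring and 78 without the lowest 10% of sgRNAs. The comparison of anti-PD-1 with IgG over organs called 28 genes, 18 of them higher, and 8 with no centring, 3 of them higher. Of 84 same-numbered pairs of libraries outside the nodes, T0 included, 27 correlated above 0.1. The correlations of these 84 pairs ran from -0.356 to 0.269 with a median of -0.029. Those of 168 pairs with different numbers ran from -0.226 to 0.239 with a median of 0.006. Whether libraries with the same number came from the same mouse was not tested. Beside the replicate block values above, where Slc2a1 and Slc5a6 passed, the block changed no other count of carriers. The undetected share limits single values, as where all 5 sgRNAs of a gene were undetected in a library.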
